A study of Mus musculus with 6 samples.

Results

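The collagen chain genes are the mouse genes whose symbol is Col, a number, the letter a and a number. There were 44 among the 57180 gene identifiers of the deposited count table. They were read in 6 RNA libraries of mouse fibroblasts from lung, heart (labelled cardiac) and tail tip, 1 library for each origin and adenovirus. All 6 libraries carry the genotype label WT, and all cells were kept in DMEM with 10% FBS and harvested 48 h after transduction. Ad-GFP is the control virus, and Ad-Cre is labelled as the GATA4 knockout. The labels name no floxed allele, strain, age or number of animals, and none says that any 2 libraries came from separate cultures. By protein class the 44 genes were 11 fibrillar, 9 fibril-associated (FACIT), 8 basement membrane, 6 beaded and 4 transmembrane genes, and 6 short-chain network, anchoring and other genes.

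Collagens are trimers of chains that wind into a triple helix and build most of the extracellular matrix. Fibrillar collagens form the tensile fibers of skin, tendon and the heart wall, FACIT collagens coat those fibers, and type IV collagen forms the sheet under epithelium and endothelium and around muscle cells. Type VI collagen makes beaded microfilaments next to cells, transmembrane collagens sit in the plasma membrane, and type VII collagen anchors the epidermis. Chains are hydroxylated, glycosylated and folded in the endoplasmic reticulum, and many lose their propeptides after secretion. Fibroblasts are the main source of the fibrillar types.

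The libraries held 26170316 to 33779069 counted reads. Gata4, the gene that the Ad-Cre libraries are labelled as lacking, had 428 and 492 reads in lung (Ad-GFP and Ad-Cre, the order kept from here on), 4769 and 4561 in cardiac and 1 and 2 in tail tip fibroblasts. As CPM, the read count relative to library size with TMM factors applied, this was 14.7 and 19.2 in lung and 146 and 149 in cardiac libraries. Its RNA was thus no lower in the libraries labelled Ad-Cre, and reads over a deleted exon were not analysed here. The 8 fibroblast markers summed to 8297 and 8098 CPM in lung, 17698 and 13871 in cardiac and 14899 and 14975 in tail tip libraries, with none at 0. Fn1 and Vim together made up most of each sum, with Fn1 at 3637 and 3582, 9854 and 9115, and 8457 and 8363 CPM. By the edgeR test described below, 4 of the 8 were higher and 3 lower in cardiac than in lung. Thy1 (846 and 627 CPM in lung, 549 and 317 in cardiac), Dcn and Lum were lower in both cardiac libraries than in both lung libraries. The 9 macrophage and leukocyte markers summed to 19.3 and 14.9 CPM in lung, 1032 and 616 in cardiac and 5239 and 4448 in tail tip libraries. C1qa and C1qb were at 0 in both lung libraries and Adgre1 and C1qc in lung Ad-Cre, and none of the 9 was at 0 in the cardiac and tail tip libraries. The 9 epithelial and keratinocyte markers summed to 14.7 CPM in the cardiac Ad-GFP library, 137 CPM in the cardiac Ad-Cre library and 2.02 to 6.28 CPM in the other 4, and Krt14 was at 0 in every library but cardiac Ad-Cre. Mesothelial markers (6 genes) summed to 155 and 195 CPM in lung, 61.3 and 132 CPM in cardiac and 0.629 and 0.906 CPM in tail tip libraries. Msln alone held 153 and 193 CPM of the lung sums. Upk3b, Upk1b, Lrrn4 and Wt1 had 0 or 1 read in each lung library, and Lrrn4 was at 0 in all lung and tail tip libraries. By the same test, 5 of the 6 were higher and 1 lower in cardiac than in lung (20.8% and 17.6% of all genes). The smooth muscle and pericyte list (7 genes) summed to 747 and 739 CPM in lung, 3060 and 2343 CPM in cardiac and 1275 and 1320 CPM in tail tip libraries. Acta2 made up most of each sum, at 632 and 612, 2795 and 2116, and 1081 and 1119 CPM in the same order. Of the 6 tested, 4 were called higher and 2 lower in cardiac than in lung, and Cnn1 and Rgs5 had higher CPM in lung. Lists for endothelial cells (6 genes, Cldn5 at 0 throughout) and Schwann cells (5 genes) stayed between 7.27 and 19.9 CPM and between 4.18 and 16.8 CPM. Whether collagen levels followed any of these lists was not tested, nor was the part of other cell types in the differences below. In such bulk RNA, fewer cells of a type and less RNA per cell cannot be told apart.

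The promoters of 4 genes are shown because their levels separated the origins in different ways. Col1a2 was lowest in lung, Col6a1 and Col6a2 were neighbours that were both highest in tail tip, and Col8a1 was highest in cardiac fibroblasts. Each is the run of 250 bases before the gene's start in RefSeq on GRCm38.p6, an older build than the mm39 named by the submitters, read 5′ to 3′ on the gene's strand. Capitals mark the motifs searched for on either strand. The TATA box was searched as TATAAA. For the motif called the CAAT box, which binds NF-Y, the letters were CCAAT. The GC box, bound by Sp proteins, was read as GGGCGG. The motif of the GATA factor family was read as AGATAA.

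Col1a2, chr6:4505368-4505617, plus strand: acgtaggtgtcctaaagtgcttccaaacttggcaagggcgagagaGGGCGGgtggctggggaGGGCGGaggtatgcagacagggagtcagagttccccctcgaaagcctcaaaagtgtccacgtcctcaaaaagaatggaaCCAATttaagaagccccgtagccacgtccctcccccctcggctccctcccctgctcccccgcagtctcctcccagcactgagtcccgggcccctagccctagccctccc

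Col6a1, chr10:76726045-76726294, minus strand: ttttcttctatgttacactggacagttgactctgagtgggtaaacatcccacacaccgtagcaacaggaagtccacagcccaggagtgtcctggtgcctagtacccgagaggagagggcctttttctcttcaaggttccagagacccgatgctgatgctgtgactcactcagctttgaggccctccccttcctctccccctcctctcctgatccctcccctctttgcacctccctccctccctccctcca

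Col6a2, chr10:76623631-76623880, minus strand: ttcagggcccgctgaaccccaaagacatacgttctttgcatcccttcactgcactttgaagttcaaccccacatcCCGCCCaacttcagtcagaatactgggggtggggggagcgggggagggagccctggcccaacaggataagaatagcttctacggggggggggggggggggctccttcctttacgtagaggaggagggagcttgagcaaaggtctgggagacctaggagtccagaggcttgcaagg

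Col8a1, chr16:57754738-57754987, minus strand: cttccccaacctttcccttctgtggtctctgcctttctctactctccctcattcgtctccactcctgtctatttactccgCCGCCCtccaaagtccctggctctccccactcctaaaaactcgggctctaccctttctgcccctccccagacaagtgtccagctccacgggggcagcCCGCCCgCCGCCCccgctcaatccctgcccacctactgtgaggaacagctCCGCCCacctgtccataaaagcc

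The Col8a1 window held 4 GC boxes, and the Col1a2 window held 2 with 1 CAAT box. The Col6a2 window shown held 1 GC box, a second window of that gene held 3, and the Col6a1 window held none of the 4 motifs. RefSeq listed 38 such windows for 35 of the collagen genes. The GC box was in 22 of the 38 (57.9%) against 32.7% of all 32851 promoters. The CAAT box was in 13 (34.2%, against 33.9% of all), the TATA box in 5 (13.2%, against 12.4%) and the GATA motif in 2 (5.26%, against 9.99%). Some genes have more than 1 window, and a match is a description of the letters only. Collagen genes were next to each other in the RefSeq annotation as Col3a1 and Col5a2, Col4a1 and Col4a2, Col4a3 and Col4a4, Col4a5 and Col4a6, Col6a1 and Col6a2, Col6a4, Col6a5 and Col6a6, and Col9a1 and Col19a1.

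Collagen genes took 0.629% and 0.768% of all reads in lung, 3.54% and 2.44% in cardiac and 3.56% and 3.31% in tail tip libraries. Both cardiac and both tail tip libraries thus lay above both lung libraries. Basement membrane genes held 18.6% and 20.3% of the collagen reads in lung, 35.5% and 34.3% in cardiac and 4.18% and 4.46% in tail tip libraries. Beaded genes held 9.86% and 9.70% in lung, 2.52% and 3.76% in cardiac and 20.1% and 19.2% in tail tip libraries. Fibrillar genes held 66.0% and 64.6%, 58.6% and 56.9%, and 69.1% and 69.4%, in the same order. FACIT genes held 3.23% and 3.08% in lung, 1.60% and 2.17% in cardiac and 6.19% and 6.42% in tail tip libraries. The 3 origins did not overlap in the shares of any of these 4 classes. Short-chain network, anchoring and other genes held 2.24% and 2.27% in lung, 1.77% and 2.93% in cardiac and 0.393% and 0.490% in tail tip libraries. There the lung shares lay inside the cardiac range. Transmembrane genes held at most 0.0647% in any library. How often other groups of genes separate the origins in this way was not counted. These shares were not tested.

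**Figure D1:**
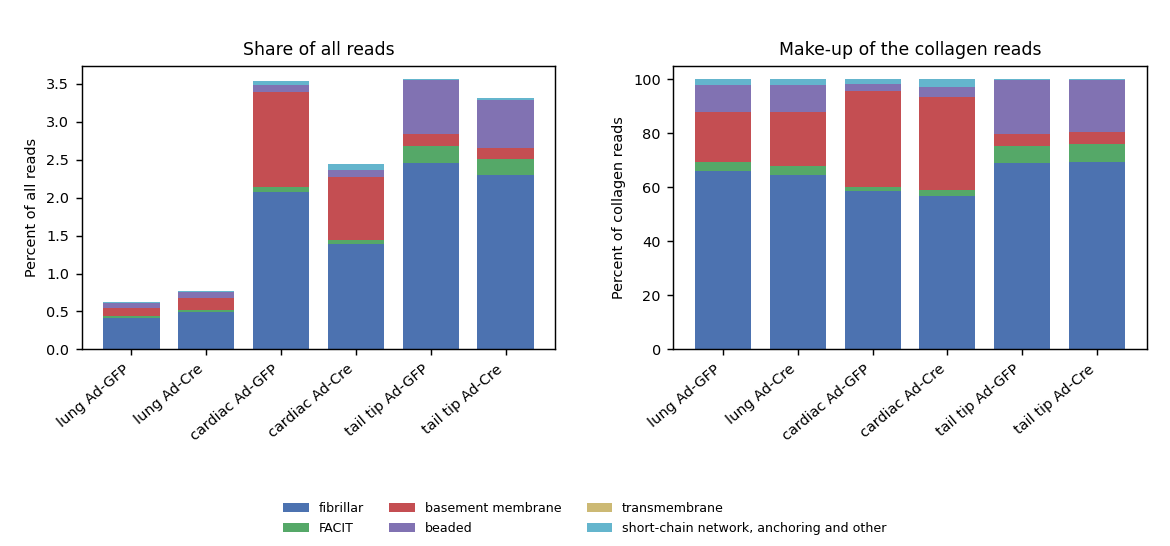
Reads of each collagen class in each of the 6 libraries, as a percent of all reads (left) and as a percent of the collagen reads (right), in stacked bars. The lung bars reach 0.629% and 0.768% of all reads, the red basement membrane block is tallest in the cardiac bars (35.5% and 34.3% of collagen reads) and the purple beaded block in the tail tip bars (20.1% and 19.2%).

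Levels of different genes were compared as CPM per kilobase of annotated exon. Col1a1, the alpha1 chain of type I collagen, ranked first among collagen genes in all 6 libraries, at 165 and 247 CPM per kilobase in lung, 1316 and 921 in cardiac and 1098 and 1001 in tail tip libraries. In both cardiac libraries the next 2 were Col4a1 (1041 and 663 CPM per kilobase) and Col4a2 (642 and 396), the chains of the common type IV network. In tail tip libraries they were Col6a1 (645 and 569) and Col5a1 (630 and 610). In lung libraries they were Col1a2 (133 and 157) and Col4a1 (84.4 and 115).

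**Figure D2:**
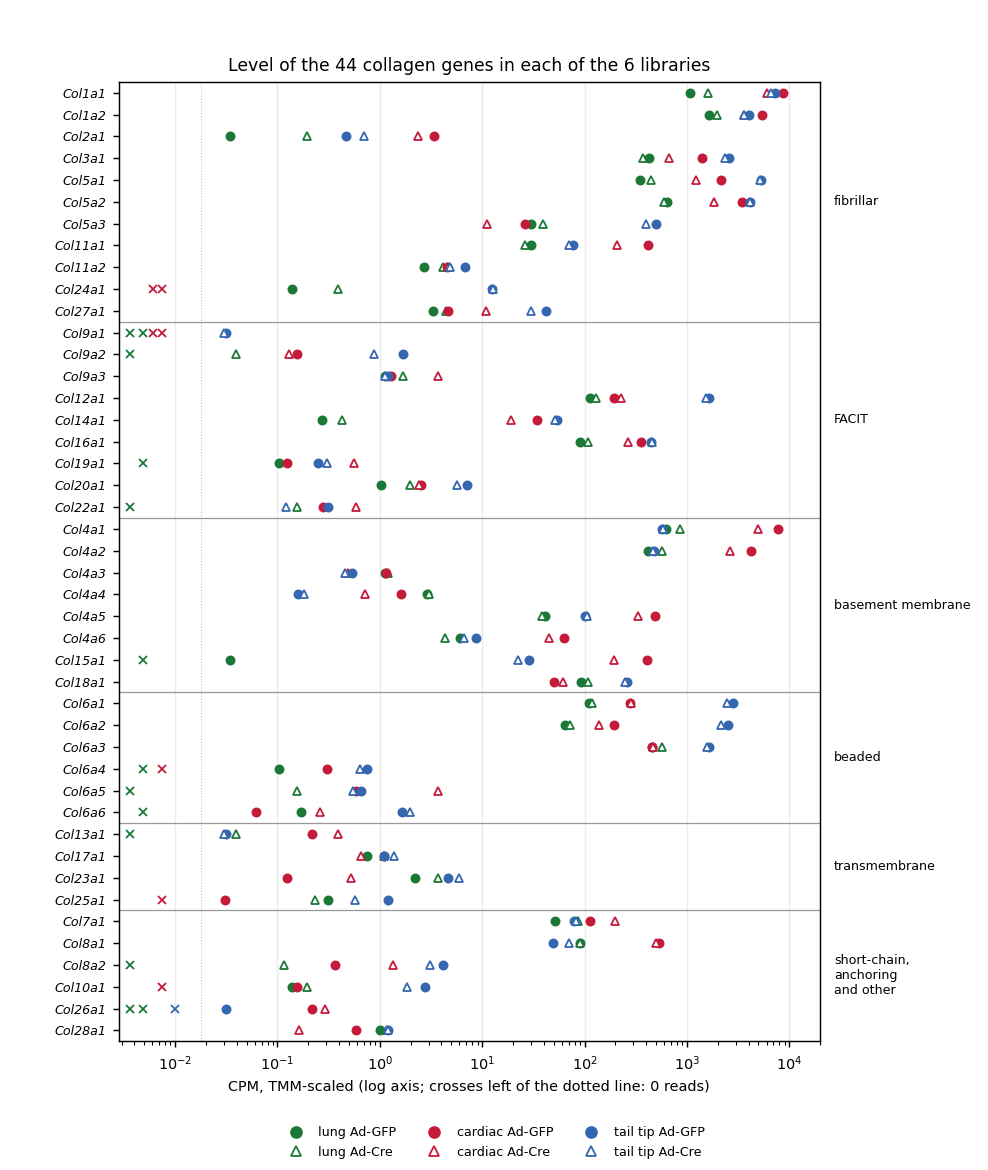
TMM-scaled CPM of all 44 collagen genes (rows, by class) in each library on a log axis, with filled circles for Ad-GFP, open triangles for Ad-Cre and crosses for 0 reads. Col4a1 lies at 7769 and 4950 CPM in cardiac libraries and at 573 to 858 CPM in the other 4, while Col6a1 lies at 2824 and 2492 CPM in tail tip libraries and at 111 to 287 CPM elsewhere.

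Origins were compared with edgeR's quasi-likelihood test in a model of origin and virus, 2-sided and adjusted over all 18143 genes that passed the filter on low counts. The 2 libraries of an origin differ in virus, so they are repeats only once the virus effect common to the origins is removed. Of the 44 collagen genes, 39 passed the filter. Col9a1 (at most 1 read in any library), Col13a1 (at most 12), Col19a1 (at most 17), Col22a1 (at most 18) and Col26a1 (at most 9) did not.

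Cardiac fibroblasts had 21 of the 39 tested collagen genes higher than lung fibroblasts and 4 lower, with 14 not called. Over all genes 20.8% were higher and 17.6% lower. The median log2 fold change of the 39 was 1.29, against -0.01 over all genes tested. Without the cardiac Ad-GFP library the number lower was 8, and all genes called lower rose to 24.9%. The 4 lower genes were Col18a1, Col23a1, Col24a1 and Col25a1.

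Against tail tip, cardiac fibroblasts had 10 of the 39 higher, 17 lower and 12 not called. Over all genes 15.5% were higher and 18% lower. The median log2 fold change was -1.02, against -0.06 over all genes. By class, 6 of 8 basement membrane genes were higher and 1 lower, and 2 of 11 fibrillar genes were higher and 5 lower. Of the beaded genes 4 of 6 were lower and 0 higher, of the tested FACIT genes 4 of 6 lower and 0 higher, and of the tested transmembrane genes 2 of 3 lower and 0 higher. Of the 5 tested short-chain, anchoring and other genes, 2 were higher and 1 lower. Class was not tested against direction.

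Lung fibroblasts had 2 of the 39 higher than tail tip fibroblasts, 26 lower and 11 not called. Over all genes 22.3% were higher and 28.2% lower. The median log2 fold change was -2.19, against -0.06 over all genes. The 2 higher were Col4a4 and Col8a1. Their number was 4 without the cardiac Ad-GFP library, without the cardiac Ad-Cre library or with only the lung and tail tip libraries in the fit, and 1 without the tail tip Ad-GFP library. All genes called higher moved with it, to 28.7%, 29.8%, 32.6% and 12.2% in the same order. The 3 comparisons share libraries, so their counts are not independent.

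By the 3 comparisons together, 15 of the 39 were higher in tail tip than in both other origins, against 13.4% of all genes. In cardiac 9 were higher than in both others (4.73% of all genes), and in lung 17 were lower than in both others (15.8% of all genes). The cardiac set held Col4a1, Col4a2, Col4a5, Col4a6, Col15a1, Col11a1, Col2a1, Col7a1 and Col8a1. None was higher in lung than in both others, against 11.6% of all genes. Col11a2, Col9a3, Col4a3, Col6a4, Col17a1 and Col28a1 were called in none of the 3.

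**Figure D3:**
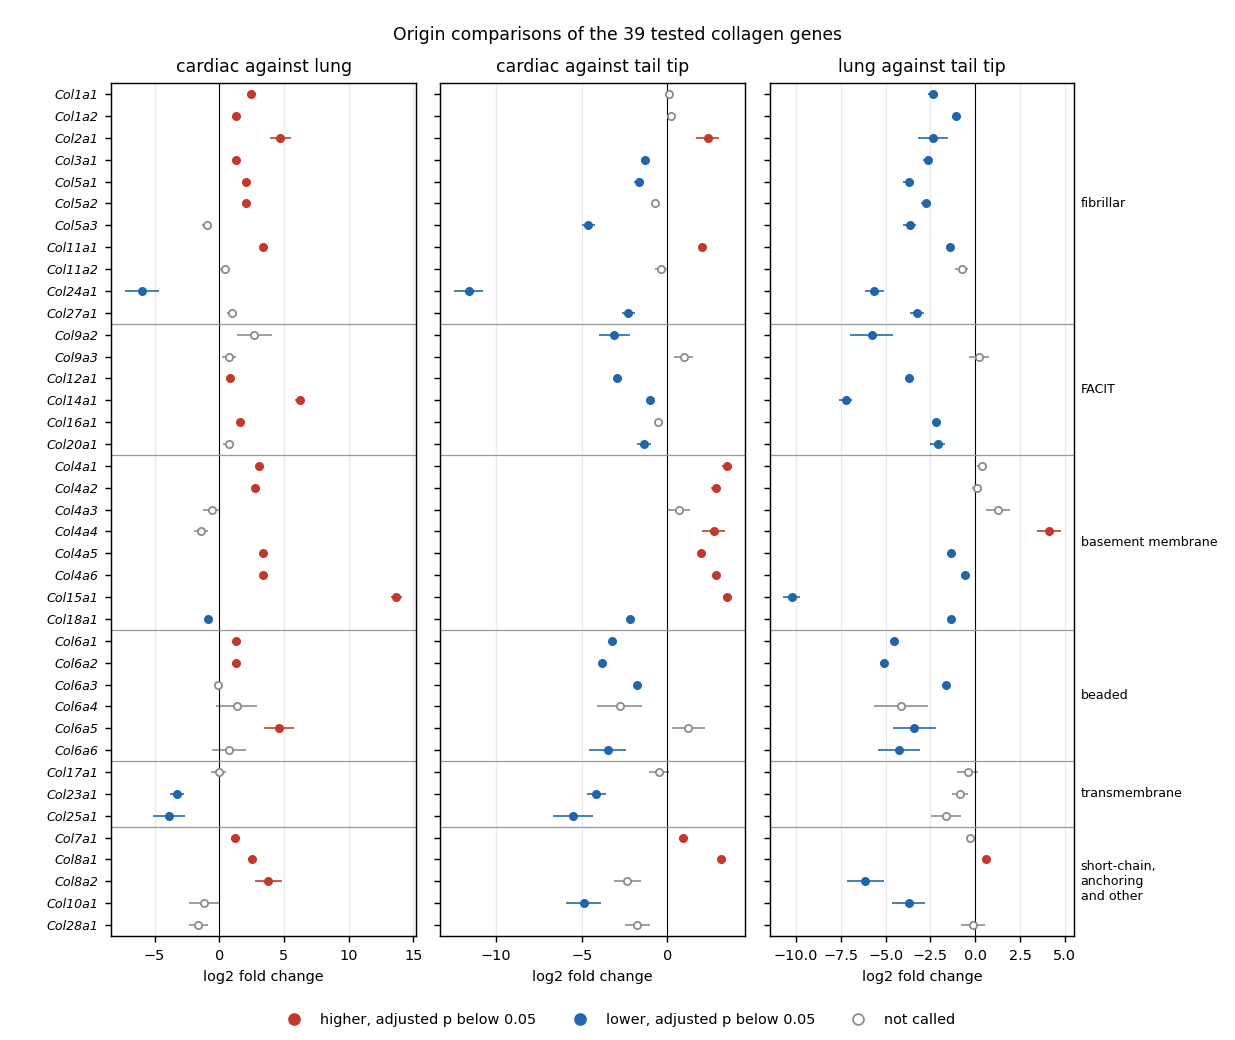
Fitted log2 fold change with its standard error for the 39 tested collagen genes in the 3 comparisons of origins, with filled points where the adjusted p is below 0.05. In the middle panel 6 of the 8 basement membrane genes lie to the right of 0 and are called while the called beaded genes lie to the left, and in the right panel 26 genes are called to the left. The points farthest from 0 are those of Col15a1 (13.7 in cardiac against lung) and Col24a1 (-11.6 in cardiac against tail tip). Both genes had 0 or 1 read in 1 origin, so their fitted fold depends on the prior count. The longest bar is that of Col6a4 in cardiac against lung (SE 1.57), a gene with at most 24 reads in any library.

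Type I collagen, the main fiber protein of the body, was lowest in lung. Col1a1 (ENSMUSG00000001506) stood at 1082 and 1619 CPM in lung, 8635 and 6046 in cardiac and 7206 and 6569 in tail tip libraries. It was 5.42-fold higher in cardiac than in lung (log2 2.44, SE 0.27, adjusted p = 0.000657). It was 5.09-fold lower in lung than in tail tip (log2 -2.35, SE 0.27, adjusted p = 0.00039). Cardiac and tail tip libraries overlapped, and their difference was not called (log2 0.09, SE 0.26, adjusted p = 0.815). Without the cardiac Ad-Cre library it was called higher in cardiac (adjusted p = 0.0183). Col1a2 (ENSMUSG00000029661), the alpha2 chain, was lowest in lung too, at 1647 and 1955, 5472 and 3579, and 4065 and 3604 CPM. It was 2.47-fold higher in cardiac than in lung (SE of log2 0.22, adjusted p = 0.00412) and 2.11-fold lower in lung than in tail tip (SE 0.22, adjusted p = 0.00566). Its difference between cardiac and tail tip was not called (log2 0.23, SE 0.22, adjusted p = 0.468) except without the cardiac Ad-Cre library (adjusted p = 0.00337).

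Type III collagen, which shares fibers with type I in pliable tissue, separated all 3 origins. Col3a1 stood at 426 and 370 CPM in lung, 1399 and 670 in cardiac and 2593 and 2344 in tail tip libraries. Tail tip was above both others and lung below both, with no overlap. Cardiac was 2.48-fold above lung (SE of log2 0.24, adjusted p = 0.00586) and 2.51-fold below tail tip (SE 0.24, adjusted p = 0.00627).

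Type V collagen starts fiber assembly and limits fiber width. Col5a1 stood at 345 and 446 CPM in lung, 2158 and 1227 in cardiac and 5349 and 5183 in tail tip libraries. It was called in all 3 comparisons, with lung 13.2-fold below tail tip (SE of log2 0.30, adjusted p = 7.39e-05). Col5a2, its usual partner, stood at 640 and 592, 3427 and 1850, and 4147 and 4170 CPM. Lung was again below both others (adjusted p = 0.000863 and 0.000126). Cardiac and tail tip were not called apart (log2 -0.71, SE 0.24, adjusted p = 0.0562), but were in 9 of 12 alternative fits. Col5a3, a less common chain, was a tail tip gene at 29.7 and 39.3 CPM in lung, 26.5 and 11 in cardiac and 496 and 400 in tail tip libraries. Tail tip was 24.8-fold above cardiac (SE 0.39, adjusted p = 0.000181) and 12.6-fold above lung (SE 0.37, adjusted p = 0.000214). Cardiac and lung were not called apart for it (log2 -0.98, SE 0.35, adjusted p = 0.0647), but were in 8 of 12 alternative fits.

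Type XI collagen is the relative of type V found in cartilage fibers, and type II is the main fiber of cartilage. Col11a1 was highest in cardiac fibroblasts, at 414 and 207 CPM, with 29.9 and 26.2 in lung and 77.6 and 70.5 in tail tip libraries. It was 10.6-fold above lung (SE of log2 0.25, adjusted p = 0.000105) and 4.01-fold above tail tip (SE 0.24, adjusted p = 0.000841). Col2a1 was far rarer, and with a mean under 5 CPM it is named after its values were seen. Its reads were 1 and 5 in lung, 111 and 72 in cardiac and 15 and 23 in tail tip libraries, with cardiac called above both. Against tail tip that call was lost without either tail tip library (adjusted p = 0.246 without Ad-GFP and 0.143 without Ad-Cre). Chondrocyte markers (7 genes) summed to 57.9 and 79.8 CPM in lung, 72.2 and 106 CPM in cardiac and 73.4 and 60.3 CPM in tail tip libraries. Sox9 made up most of each sum, at 57.2 and 78.4, 64.5 and 99.4, and 46.4 and 36.1 CPM in the same order. Acan (160 and 43 reads) and Matn3 (54 and 93) were highest in cardiac libraries. Comp (420 and 357 reads) and Hapln1 (411 and 414) were highest in tail tip libraries. Matn1 was at 0 in lung and cardiac libraries and Acan and Hapln1 in lung libraries, and the part of cartilage cells was not tested.

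The remaining fibrillar genes were Col27a1 and Col24a1, both found with cartilage and developing bone, and Col11a2. Col27a1 stood at 3.29 and 4.48 CPM in lung, 4.67 and 11 in cardiac and 41.8 and 30.2 in tail tip libraries. Tail tip was 4.92-fold above cardiac (SE of log2 0.39, adjusted p = 0.00432) and 9.61-fold above lung (SE 0.41, adjusted p = 0.000552). Col24a1, also named after its values were seen, had 4 and 10 reads in lung, 0 and 0 in cardiac and 400 and 420 in tail tip libraries. Against a floor of 3 reads over both cardiac libraries, tail tip was at least 266-fold higher. Col11a2, at 2.71 to 6.85 CPM, was called in no comparison.

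FACIT collagens lie along fibrillar collagen and change how fibers pack and slide. Col12a1, abundant in tendon and skin, stood at 113 and 129 CPM in lung, 195 and 228 in cardiac and 1638 and 1553 in tail tip libraries. Tail tip was 7.58-fold above cardiac (SE of log2 0.16, adjusted p = 4.13e-05) and 13.2-fold above lung (SE 0.17, adjusted p = 8.19e-06). Cardiac was above lung by a smaller step (1.75-fold, SE 0.15, adjusted p = 0.0065). Col14a1, a related coat protein, was nearly missing from lung, at 0.274 and 0.428 CPM (8 and 11 reads) against 34.2 and 19.1 in cardiac and 53.8 and 50.9 in tail tip libraries. Cardiac was 74.2-fold above lung (SE 0.37, adjusted p = 4.55e-05). It was 2.02-fold below tail tip (SE 0.25, adjusted p = 0.0199), a call lost without the tail tip Ad-Cre library (adjusted p = 0.127). Col16a1 stood at 90.4 and 108, 354 and 266, and 448 and 460 CPM, with lung below cardiac (3.11-fold, SE 0.19, adjusted p = 0.000798) and below tail tip (4.57-fold, SE 0.19, adjusted p = 0.000115). Cardiac and tail tip were not called apart for it (log2 -0.55, SE 0.19, adjusted p = 0.0573), but were in 8 of 12 alternative fits.

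The other FACIT genes were scarce. Col9a3, a chain of type IX collagen of cartilage, stood at 1.13 and 1.67 CPM in lung, 1.29 and 3.66 in cardiac and 1.19 and 1.12 in tail tip libraries and was called in no comparison. Col9a2 and Col20a1, at most 7.13 CPM, were highest in tail tip libraries and were called there against both others. The calls against cardiac were lost without tail tip Ad-GFP (adjusted p = 0.684 for Col9a2 and 0.491 for Col20a1) and without tail tip Ad-Cre (0.183 and 0.0763). Those against lung were lost without tail tip Ad-GFP (0.152 and 0.0668), and that of Col9a2 also without lung Ad-GFP (0.0518).

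Of the 8 basement membrane genes, 5 were called higher in cardiac than in lung and 6 higher in cardiac than in tail tip. Col4a1 (ENSMUSG00000031502) stood at 630 and 858 CPM in lung, 7769 and 4950 in cardiac and 573 and 585 in tail tip libraries. Both cardiac libraries lay above the other 4, by 8.49-fold over lung (SE of log2 0.28, adjusted p = 0.000245) and 10.9-fold over tail tip (SE 0.28, adjusted p = 0.000153). Col4a2 (ENSMUSG00000031503), its neighbour and partner chain, stood at 413 and 577, 4249 and 2620, and 480 and 469 CPM. It was 6.86-fold above lung (SE 0.28, adjusted p = 0.000444) and 7.2-fold above tail tip (SE 0.28, adjusted p = 0.000381). Lung and tail tip were not called apart for Col4a1 (log2 0.37, SE 0.25, adjusted p = 0.267) or Col4a2 (log2 0.07, SE 0.26, adjusted p = 0.848). For Col4a1 they were called apart without the lung Ad-GFP library (adjusted p = 0.0317), without cardiac Ad-GFP (0.0181) and without cardiac Ad-Cre (0.0107).

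Col4a5 and Col4a6, chains of the networks around smooth muscle and under some epithelia, were also highest in cardiac fibroblasts, at lower levels. Col4a5 stood at 41.2 and 38.2 CPM in lung, 487 and 330 in cardiac and 100 and 106 in tail tip libraries. It was 10.2-fold higher in cardiac than in lung (SE of log2 0.20, adjusted p = 4.63e-05). Unlike Col4a1 and Col4a2, it was also called lower in lung than in tail tip (2.61-fold, SE 0.19, adjusted p = 0.000831). Col4a6 stood at 6.11 and 4.36, 63.3 and 44.5, and 8.61 and 6.64 CPM, 10.3-fold higher in cardiac than in lung (SE 0.19, adjusted p = 3.48e-05). Lung was called below tail tip for Col4a6 (1.46-fold, SE 0.18, adjusted p = 0.0374), a call lost in 6 of 12 alternative fits, among them those without either lung library (0.168 without Ad-GFP and 0.173 without Ad-Cre) or either tail tip library (0.244 and 0.376).

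The remaining type IV chains were rare and were not called higher in cardiac than in both other origins. Col4a4 stood at 2.92 and 3.04 CPM in lung, 1.60 and 0.719 in cardiac and 0.157 and 0.181 in tail tip libraries, so that tail tip was lowest. Lung was 17.2-fold above tail tip (SE of log2 0.65, adjusted p = 0.00172). Cardiac was 6.45-fold above tail tip (SE 0.65, adjusted p = 0.0181), a call lost without either tail tip library (adjusted p = 0.206 without Ad-GFP and 0.0576 without Ad-Cre) or with only those 2 origins in the fit (0.0535). Col4a3, its partner in the network of kidney and lung, had 15 to 37 reads a library and was called in no comparison.

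Type XV and type XVIII collagen are related proteins of the basement membrane zone, and type XVIII is the parent of endostatin. Col15a1 showed the widest range of any collagen gene, with 1 and 0 reads in lung, 13201 and 5955 in cardiac and 922 and 746 in tail tip libraries. In CPM these were 405 and 195 in cardiac and 29.0 and 22.5 in tail tip libraries. The ratio of pooled reads, cardiac over lung, was 16636 with a 95% counting interval of 2985 to 657101. Cardiac was 11-fold above tail tip (SE of log2 0.22, adjusted p = 6.49e-05). Col18a1 ran the other way, at 91.4 and 109 CPM in lung, 50.1 and 61.0 in cardiac and 261 and 249 in tail tip libraries. Cardiac was below lung (1.80-fold, SE 0.16, adjusted p = 0.00565) and below tail tip (4.62-fold, SE 0.16, adjusted p = 0.000104).

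Type VI collagen, built from 1 chain each of Col6a1, Col6a2 and Col6a3 or a relative of it, was highest in tail tip fibroblasts. Col6a1 (ENSMUSG00000001119) stood at 111 and 119 CPM in lung, 275 and 287 in cardiac and 2824 and 2492 in tail tip libraries. Tail tip was 23.2-fold above lung (SE of log2 0.18, adjusted p = 5.52e-06) and 9.45-fold above cardiac (SE 0.17, adjusted p = 3.26e-05). Col6a2 stood at 64.8 and 71.9, 194 and 137, and 2499 and 2142 CPM, 33.7-fold higher in tail tip than in lung (SE 0.22, adjusted p = 7.31e-06). Both were also higher in cardiac than in lung (2.45-fold and 2.39-fold). Col6a3, the longest of these chains, differed less, at 452 and 569 CPM in lung, 455 and 471 in cardiac and 1647 and 1562 in tail tip libraries. Tail tip was 3.47-fold above cardiac (SE 0.17, adjusted p = 0.000271), and cardiac and lung overlapped (log2 -0.14, SE 0.16, adjusted p = 0.535).

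Col6a4, Col6a5 and Col6a6 encode alternatives to the Col6a3 chain and were rare. Col6a5 had 0 and 4 reads in lung, 19 and 112 in cardiac and 21 and 18 in tail tip libraries. It was called lower in lung than in both others, and against tail tip that call was lost in 3 of 12 alternative fits, among them those without lung Ad-GFP (adjusted p = 0.138) and without tail tip Ad-GFP (0.28). Col6a6 (5 and 0, 2 and 8, and 52 and 66 reads) was called higher in tail tip than in both others, and Col6a4 (at most 24 reads) was not called. The Col6a6 calls were lost without either tail tip library (adjusted p = 0.0848 and 0.379 against cardiac, 0.0607 and 0.0517 against lung) and, against lung, without lung Ad-Cre (0.0743). Col6a4 was called lower in lung than in tail tip in 6 of 12 alternative fits.

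Anchoring, short-chain and transmembrane collagens showed mixed courses. Col7a1, the anchoring fibril protein of skin, stood at 51.7 and 86.0 CPM in lung, 114 and 201 in cardiac and 79.0 and 81.9 in tail tip libraries. Cardiac was above lung (2.27-fold, SE of log2 0.21, adjusted p = 0.00501) and above tail tip (1.86-fold, SE 0.21, adjusted p = 0.017), the second call being lost without the tail tip Ad-Cre library (adjusted p = 0.38). Col8a1, a chain of the hexagonal network of vessel walls and cornea, stood at 89.9 and 90.1 CPM in lung, 536 and 498 in cardiac and 49.3 and 69.9 in tail tip libraries. It was 5.76-fold above lung (SE 0.19, adjusted p = 0.000122) and 8.76-fold above tail tip (SE 0.20, adjusted p = 6.07e-05), with no overlap. Lung was called above tail tip for it (1.52-fold, SE 0.18, adjusted p = 0.0286), but not without the lung Ad-GFP library (adjusted p = 0.101) or the tail tip Ad-GFP library (adjusted p = 0.542).

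Col8a2, the partner chain of Col8a1, was rare and had a different order, with 0 and 3 reads in lung, 12 and 41 in cardiac and 131 and 103 in tail tip libraries. It was called lower in lung than in both others, against cardiac not without lung Ad-GFP (adjusted p = 0.0578). Cardiac and tail tip were not called apart for it (adjusted p = 0.0555), but were in 9 of 12 alternative fits. Col10a1, the collagen of hypertrophic cartilage, had 4 and 5, 5 and 0, and 87 and 61 reads and was called higher in tail tip than in both others, against lung not without lung Ad-GFP (adjusted p = 0.0809) or either tail tip library (0.0563 and 0.109). Among transmembrane genes, Col23a1 had 65 and 95 reads in lung, 4 and 16 in cardiac and 146 and 197 in tail tip libraries and was called lower in cardiac than in both others. Col25a1 was called lower in cardiac too, on at most 38 reads, and its call against lung was lost in 6 of 11 alternative fits and that against tail tip without either tail tip library (adjusted p = 0.238 and 0.0661). Col17a1, the hemidesmosome collagen, had 20 to 46 reads in every library and was not called. These 5 genes lay under a mean of 5 CPM and were named after their values were seen.

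Chains of 1 protein were also set against each other within a library, as ratios of reads per kilobase with exact 95% counting intervals. Col1a1 over Col1a2 was 1.24 and 1.57 in lung, 2.99 and 3.20 in cardiac and 3.36 and 3.45 in tail tip libraries, so that lung was lowest. Col5a1 over Col5a2 was 0.608 and 0.850 in lung, 0.711 and 0.750 in cardiac and 1.46 and 1.40 in tail tip libraries. Col6a3 over Col6a1 was 1.5 and 1.75 in lung, 0.604 and 0.602 in cardiac and 0.213 and 0.230 in tail tip libraries. Each origin thus held its own range for this pair, as it did for Col1a1 over Col1a2 and for Col4a1 over Col4a2. Col4a1 over Col4a2 was 1.35 and 1.32 in lung, 1.62 and 1.68 in cardiac and 1.06 and 1.11 in tail tip libraries. Col6a1 over Col6a2 was 3.25 and 3.14, 2.69 and 3.97, and 2.15 and 2.21, and there the cardiac pair spanned the lung values. Col4a5 over Col4a6 was 8.01 and 10.4 in lung, 9.13 and 8.81 in cardiac and 13.8 and 18.9 in tail tip libraries. Col8a1 over Col8a2 was 442 in lung Ad-Cre, 834 and 213 in cardiac and 6.86 and 12.9 in tail tip libraries. Lung Ad-GFP had 0 reads of Col8a2. Lung and cardiac overlapped for both of these pairs. The absolute ratios depend on the exon length used, which is the union over all annotated transcripts, whereas their order between libraries does not. None of these ratios was tested.

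**Figure D4:**
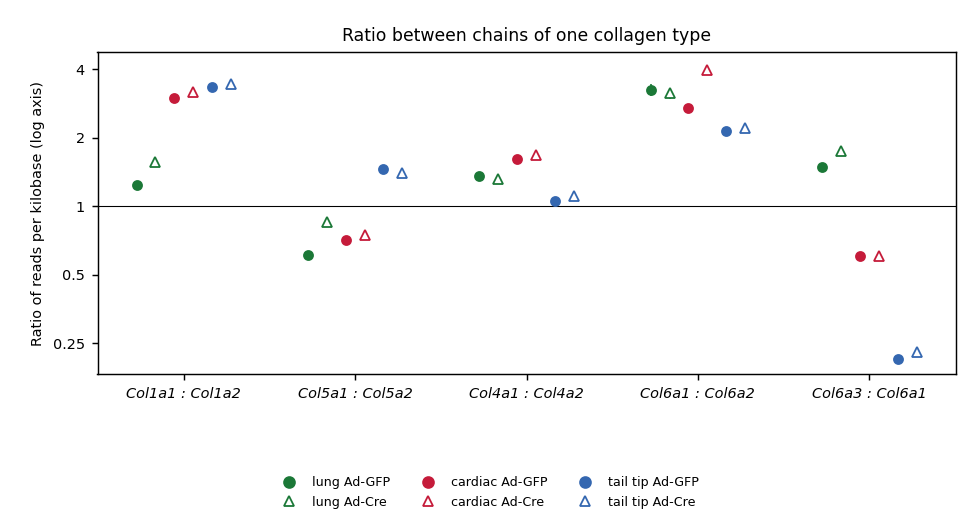
Ratio of reads per kilobase between 2 chains of the same collagen type in each library on a log axis, with exact 95% counting intervals that are mostly smaller than the symbols. Col6a3 over Col6a1 drops from 1.5 and 1.75 in lung to 0.213 and 0.230 in tail tip libraries, and Col5a1 over Col5a2 lies above 1 only in the 2 tail tip libraries.

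The effect of Ad-Cre against Ad-GFP, taken as common to the 3 origins, was called for 0 of the 39 collagen genes in either direction by edgeR. Over all genes 0% were higher and 0% lower, with a lowest adjusted p of 0.9996. DESeq2 and limma-voom also called 0 collagen genes, and 5 had an unadjusted edgeR p under 0.05, against 367 of all genes. The 39 had a median log2 fold change of -0.06, against 0.00 over all genes. Col15a1 (log2 -0.73, SE 0.21), Col3a1 (-0.47, SE 0.20), Col4a6 (-0.46, SE 0.14) and Col11a1 (-0.45, SE 0.19) had lower values with Ad-Cre, and Col7a1 had a higher one (0.54, SE 0.17). With no filter on low counts, 141 of 35114 genes were called, among them 1 collagen gene, Col15a1 (adjusted p = 0.0254).

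Within an origin there was 1 library a virus, so Ad-Cre over Ad-GFP is given as a ratio of CPM with a 95% counting interval and no test. Cardiac libraries showed the widest spread over all genes: the SD of the log2 ratio was 1.01 there, 0.54 in lung and 0.39 in tail tip. The median log2 ratio of the 39 collagen genes was -0.51 in cardiac, 0.33 in lung and -0.09 in tail tip, against 0.00, 0.03 and 0.01 over all genes.

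In cardiac libraries 6 of the 39 were at least 2-fold higher with Ad-Cre and 8 at least 2-fold lower. Over all genes 11.3% were higher and 9.07% lower. Among the 28 with at least 50 reads in 1 of the 2 libraries, 19 had ratios below 1 and 9 above. The 4 that were 2-fold lower were Col5a3 (0.416, 0.366 to 0.473), Col4a4 (0.451, 0.261 to 0.755), Col3a1 (0.479, 0.471 to 0.487) and Col15a1 (0.480, 0.466 to 0.495). The 3 that were 2-fold higher were Col27a1 (2.35, 1.94 to 2.87), Col9a3 (2.84, 1.98 to 4.15) and Col6a5 (6.28, 3.84 to 10.8). Col11a1 lay just inside the 2-fold bound (0.502), while Col1a1 (0.70), Col4a1 (0.637) and Col5a1 (0.569) were lower by less. Col6a1 (1.04), Col6a3 (1.04) and Col12a1 (1.17) stayed near 1. The same pair of libraries differed in the epithelial list (14.7 against 137 CPM, with 6 of 6 tested genes at least 2-fold higher with Ad-Cre), in the macrophage list (1032 against 616 CPM, with 3 of 9 at least 2-fold lower) and in the fibroblast list (17698 against 13871 CPM). Within the fibroblast list Vim, Fn1, Thy1, Dcn and Lum were lower with Ad-Cre, and Pdgfra, Pdgfrb and S100a4 were higher. The mesothelial list, which shares Krt19 with the epithelial list, stood at 61.3 against 132 CPM. Of its 6 genes 4 were at least 2-fold higher with Ad-Cre and 1 lower. The smooth muscle and pericyte list stood at 3060 against 2343 CPM, with 2 of 6 tested genes at least 2-fold higher and 1 lower. The part of these lists in the collagen ratios was not tested.

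In lung libraries 4 of the 39 were at least 2-fold higher with Ad-Cre and 2 lower, none with 50 reads. Over all genes 4.87% were higher and 2.82% lower. Of the 24 with at least 50 reads, 19 had ratios above 1, led by Col20a1 (1.93, 1.21 to 3.14), Col7a1 (1.66, 1.56 to 1.78) and Col23a1 (1.66, 1.20 to 2.31). Col1a1 stood at 1.5 (1.47 to 1.52).

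Tail tip libraries were closest to each other, with 0 of the 39 at least 2-fold higher and 0 lower. Over all genes 1.53% were higher and 1.58% lower. Of the 30 with at least 50 reads, 21 had ratios below 1, and Col9a2 was lowest (0.516, 0.317 to 0.824) and Col8a1 highest (1.42, 1.33 to 1.51). Of the 22 genes with at least 50 reads in every origin, Col7a1 alone was above 1 in all 3 (1.66, 1.77 and 1.04, the last with an interval of 0.982 to 1.09). Col3a1, Col11a1 and Col4a6 were below 1 in all 3, and the other 18 changed side between origins. No share over all genes is given for this count or for those of ratios above or below 1 in each origin. These counts are descriptions only.

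**Figure D5:**
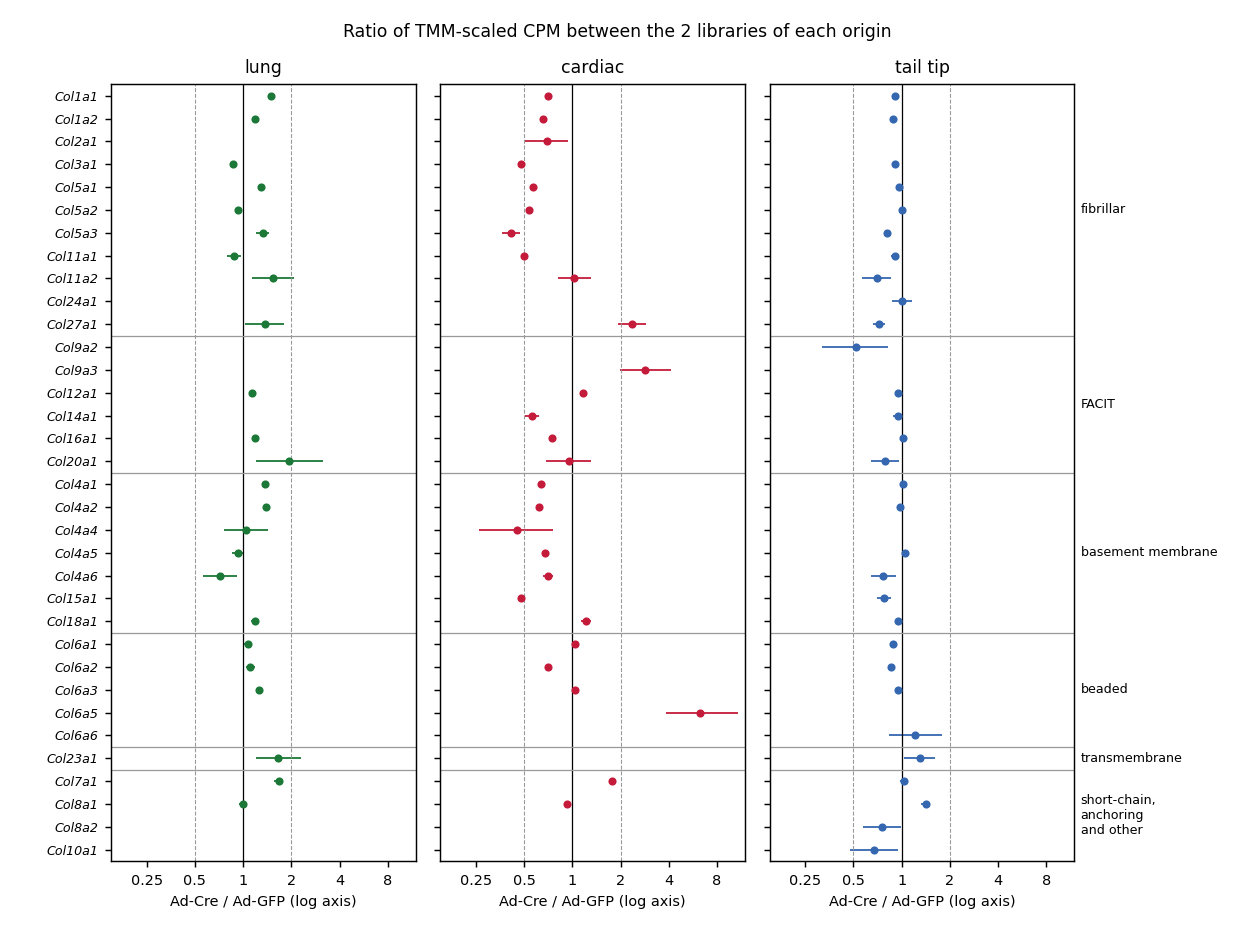
Ratio of TMM-scaled CPM, Ad-Cre over Ad-GFP, with 95% counting intervals on a log axis for collagen genes with at least 50 reads in 1 of the 2 libraries of an origin; dashed lines mark 2-fold. Most points lie right of 1 in lung (19 of 24) and left of 1 in cardiac (19 of 28) and tail tip (21 of 30), and the spread is widest in cardiac. No share over all genes is given for these counts.

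Genes that modify, fold, cleave or bind collagen were counted as whole lists, all with edgeR's adjusted p. Over all genes, 20.8% were higher and 17.6% lower in cardiac than in lung, 15.5% and 18% in cardiac than in tail tip, and 22.3% and 28.2% in lung than in tail tip, with median log2 fold changes of -0.01, -0.06 and -0.06. Of the 15 genes for hydroxylation and glycosylation of procollagen, 9 were higher and 0 lower in cardiac than in lung, 1 higher and 5 lower in cardiac than in tail tip, and 12 lower and 0 higher in lung than in tail tip. Their median log2 fold changes were 0.97, -0.38 and -1.46. Plod2, a lysyl hydroxylase that favours stable crosslinks, was a cardiac gene at 359 and 312 CPM, with 59.0 and 48.4 in lung and 142 and 152 in tail tip libraries. P4ha2, a prolyl 4-hydroxylase, was a tail tip gene at 310 and 286 CPM against 47.9 and 47.3 in lung and 75.2 and 55.7 in cardiac libraries. P4ha3, of the same family, stood at 8.61 and 8.96 in lung, 67.8 and 39.9 in cardiac and 118 and 105 in tail tip libraries. The prolyl 3-hydroxylases P3h1 and P3h3 were also lowest in lung (33.9 and 35.3 CPM, and 23.3 and 22.4 CPM).

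Of the 8 folding and export genes, 6 were higher in cardiac than in lung, 2 lower in cardiac than in tail tip and 5 lower in lung than in tail tip, with none called the other way. Median log2 fold changes were 1.26, -0.16 and -1.23. The 2 of 8 lower than tail tip in cardiac lay near the 18% of all genes. Serpinh1, the collagen chaperone HSP47, stood at 1038 and 1101 CPM in lung, 2623 and 1464 in cardiac and 1366 and 1258 in tail tip libraries. It was not called between cardiac and tail tip (log2 0.60, SE 0.23, adjusted p = 0.0867), but was in 6 of 12 alternative fits. Sparc, a collagen-binding matrix protein, stood at 966 and 1123, 4202 and 3475, and 4260 and 4055 CPM. Fkbp10 and Fkbp14, prolyl isomerases of the endoplasmic reticulum, were also higher in cardiac than in lung (log2 1.64 and 2.41), and Fkbp14 and Tmem38b, an ion channel of that compartment, were lower in cardiac than in tail tip (log2 -1.01 and -0.80). The Tmem38b call was lost without either tail tip library (adjusted p = 0.256 and 0.129).

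Of the 8 tested propeptide cleavage genes (10 in the list), 5 were higher and 0 lower in cardiac than in lung, 4 higher and 3 lower in cardiac than in tail tip, and 2 higher and 4 lower in lung than in tail tip, with medians of 1.69, 0.72 and -0.73. The 2 of 8 higher in lung than in tail tip lay near the 22.3% of all genes. Tll1, a protease that cuts C-propeptides, was a cardiac gene at 176 and 138 CPM, with 42.1 and 27.8 in lung and 22.1 and 22.1 in tail tip libraries. Adamts2, which cuts N-propeptides, was too, at 196 and 179 CPM against 53.0 and 64.8, and 55.8 and 52.2. Bmp1, of the same family as Tll1, and its enhancer Pcolce were instead highest in tail tip libraries (444 and 431 CPM, and 629 and 611 CPM). Adamts14 was higher in cardiac than in tail tip (log2 1.40), and Pcolce2 was lower in lung than in both others (21.5 and 29.7 CPM).

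Of the 9 tested receptor and uptake genes (10 in the list), 4 were higher and 1 lower in cardiac than in lung, 2 higher and 2 lower in cardiac than in tail tip, and 2 higher and 5 lower in lung than in tail tip, with medians of 0.58, 0.36 and -1.04. The 2 of 9 in each direction between cardiac and tail tip lay near the 15.5% and 18% of all genes. Itga11, the fibroblast integrin for fibrillar collagen, stood at 0.549 and 1.67 CPM in lung, 9.58 and 12.3 in cardiac and 53.2 and 45.2 in tail tip libraries. Itga2 ran the other way, at 18 and 14.5 in lung against 0.948 to 2.39 CPM elsewhere. Itga1, which binds type IV collagen, was higher in cardiac than in lung (23.8 and 26.4 against 3.33 and 3.58 CPM). Itgb1, the common beta chain, was higher in cardiac than in tail tip (log2 0.94), a call lost without either tail tip library (adjusted p = 0.0618 and 0.0789). Between Ad-Cre and Ad-GFP 0 genes of the 4 lists were called by edgeR.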

How the data were processed

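RNA of 6 mouse fibroblast libraries was analysed from the authors' deposited table of raw read counts per Ensembl gene, whose columns were matched to samples by name. STAR 2.0.7 and mm39 are named in the submitters' processing notes, with no role given; for the counting tool, annotation and use of strand, the entry is: not given in the sources used here. Library totals were 26170316 to 33779069 reads, and intervals (95%, exact) and the floor of 3 reads cover no error but that of counting. The test across genes was that of edgeR 4.0.16 (R 4.3.3; TMM, filter at a minimum count of 10, quasi-likelihood, additive model of origin and virus, 2 residual degrees of freedom, Benjamini-Hochberg over 18143 genes, called at an adjusted p under 0.05). P-values measure only the spread between these libraries, which may be technical. DESeq2 1.42.0, limma 3.58.1 (voom), other scalings, no filter, each library left out, only the 2 origins compared and, chosen after seeing the data, leaving out an origin were alternatives. On simulated counts for cardiac against lung over 18143 genes, 90 of 100 genes changed 4-fold were recovered and 16 of 100 changed 2-fold. For Ad-Cre against Ad-GFP these were 94 and 30. The simulation left all other genes unchanged, used a fixed dispersion and held no difference between origins in the response to virus. In the data 6967 genes were called between cardiac and lung, so these rates need not hold for the tests above. Within an origin, 2-fold differences used a prior count of 2.

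The collagen genes, the lists and the rule for named genes were chosen with earlier results of these data known. Values in every library are given for collagen genes called between origins with a mean of at least 5 CPM, for the 5 highest per length in a library, and for those 2-fold apart within an origin with 50 reads. Of each pathway list, the 3 genes of at least 5 CPM with the largest change per comparison are named. Exon lengths are unions over all annotated transcripts, from an annotation of an older build. Protein sequences were not analysed here.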

Additional observations from a re-analysis of the deposited data

Results flagged for a closer look

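For 8 of the 26 tested collagen genes with at least 50 reads in 2 origins or more (30.8%), the ratio of Ad-Cre to Ad-GFP lay above 1 in 1 origin and below 1 in another, with counting intervals on opposite sides of 1, at least 50 reads and at least a 2-fold gap between the ratios. Over all genes tested, 918 of 12592 met the same rule (7.29%). Counting intervals narrow as reads rise, and the collagen genes and all genes were not matched in read number beyond the minimum of 50. Each ratio compares 1 library with 1 library, so the difference between origins was not tested.

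Between lung and cardiac fibroblasts, Col1a1 had ratios of 1.5 and 0.70. Col5a1 had 1.29 and 0.569, and Col5a3 had 1.33 and 0.416. The type IV pair went the same way, with 1.36 and 0.637 for Col4a1 and 1.40 and 0.617 for Col4a2. Between lung and tail tip fibroblasts, Col11a2 had ratios of 1.54 and 0.70 and Col20a1 had 1.93 and 0.787. Between cardiac and tail tip fibroblasts, Col27a1 had 2.35 and 0.722.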

How the results depend on the processing

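Of the fold changes of collagen genes between origins recomputed under the alternatives, 1022 kept direction and call, 52 became called, 45 were no longer called and 7 changed sign, all 7 without a call and with 1 library left out. Those were Col1a1 in cardiac against tail tip without cardiac Ad-GFP (-0.35) or tail tip Ad-Cre (-0.02), Col1a2 there without cardiac Ad-GFP (-0.16), Col4a1 and Col4a2 in lung against tail tip without lung Ad-Cre (-0.052 and -0.40), Col6a3 in cardiac against lung without lung Ad-Cre (0.014) and Col7a1 in lung against tail tip without tail tip Ad-GFP (0.081); the cause was not tested. With 1 library left out at a time, these fold changes ran from -0.35 to 0.44 for Col1a1, -0.16 to 0.54 for Col1a2, -0.052 to 0.72 for Col4a1, -0.40 to 0.46 for Col4a2, -0.34 to 0.014 for Col6a3 and -0.64 to 0.081 for Col7a1. With 1 library left out, collagen genes lower in cardiac than in lung numbered 3 to 8 (main value 4), and those higher in lung than in tail tip 1 to 4 (main value 2), or 4 with only those 2 origins in the fit. Without the filter on low counts, 1 collagen gene was lower with Ad-Cre and 1 was 2-fold lower in tail tip, the latter also with a prior count of 0.5 (main values 0). Collagen shares were 0.660%, 0.803%, 3.61%, 2.5%, 3.60% and 3.35% without mitochondrial genes and 0.695%, 0.846%, 3.91%, 2.68%, 3.90% and 3.62% without the 20 most abundant other genes, in the order lung, cardiac, tail tip with Ad-GFP first; these totals are smaller by construction. Scaling by library totals moved the median of all genes to -0.11 in cardiac and -0.12 in lung against tail tip. The model's origin term already pairs Ad-Cre with Ad-GFP over the 3 origins, and with 1 library a group no fit by replicate number could be added.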
